A study of Homo sapiens with 15 samples.

Results

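HGrC1 cells that received wild-type FOXL2, FOXO1-3A and SMAD3 (FOXL2WT + FOXO1) were compared with HGrC1 cells that received empty vectors (Vectors). The comparison was defined by the condition labels of the libraries, and it takes 6 of the 15 libraries of the series, 3 of each condition. HGrC1 is an immortalized, non-luteinized line of human granulosa cells with normal FOXL2 alleles, used at passage 14. FOXO1-3A (FOXO1 hereafter) carries alanine at the phosphorylation sites by which growth factor signaling sends FOXO1 out of the nucleus, and is therefore constitutively active. Both conditions went through 4 h of lipofection in medium without serum and a further 24 h of culture before polyadenylated RNA was sequenced from 1 end in reads of 75 bases. SMAD3 was co-transfected in all conditions but Vectors, so the changes below belong to FOXL2WT, SMAD3 and FOXO1 together and the share of each cannot be told apart. Replicates carry the letters A, B and C. Nothing in the labels says that they are separate cultures, and p-values then measure only the spread between these libraries. Beyond the 6 libraries, FOXL2WT (SMAD3 and FOXL2WT without FOXO1) and FOXL2C134W + FOXO1 (the tumor mutant of FOXL2 with SMAD3 and FOXO1) are used only to show where FOXL2WT + FOXO1 differed from them.

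FOXL2 is a forkhead transcription factor that maintains granulosa cell identity and works with SMAD3, the factor through which TGF-beta and activin receptors act on genes. FOXO1 is a forkhead factor of another branch, held in check by insulin and growth factor signaling, with targets in cell cycle arrest, stress resistance and apoptosis. Forkhead factors bind short sites with the core GTAAACA. Other programs that transfected cells are known to engage run through other sites: ATF4 induces amino acid synthesis and transport genes, NF-kappaB induces chemokines and its own inhibitors, and interferon induces antiviral genes.

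Of 13868 genes tested, 524 were differentially expressed (DEGs; edgeR, Benjamini-Hochberg adjusted p under 0.05), which is 3.78% of those tested. Of these, 195 rose in FOXL2WT + FOXO1 (1.41%) and 329 fell (2.37%). The DEGs had a median absolute log2 fold change of 0.274, with changes over 1.5-fold in 51 of them and over 2-fold in 19. The groups of 3 libraries did not overlap in 22.7% of all genes tested, and in all 524 DEGs. At an unadjusted p under 0.05 in edgeR stood 2400 of the 13868 genes, beside which such counts for the lists below are to be read. Among 492 DEGs other than the transfected genes with a mean of at least 5 CPM (counts per library scaled to a common total), the largest falls were in chemokines, TNF family ligands and antiviral genes, and the 12 largest rises included the peptide hormone gene ADM2 and the amino acid synthesis genes PSAT1 and ASNS.

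**Figure D1:**
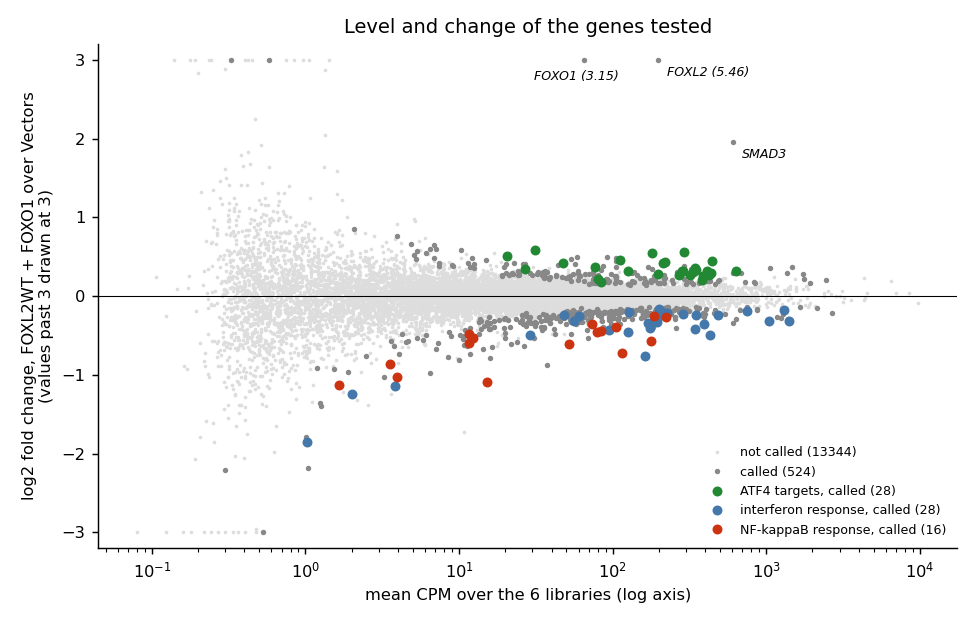
Each dot is 1 of 13868 genes, with its mean level in CPM over the 6 libraries on a log axis and its log2 fold change in FOXL2WT + FOXO1 over Vectors. Called members of the lists of ATF4 targets (28, green) lie above 0, and those of the interferon response (28, blue) and NF-kappaB response (16, red) lie below 0.

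The promoters of 7 called genes are shown first because they hold the short sites by which these programs are known to be read. They are stretches of 120 bases before the RefSeq gene start (GRCh38.p14), 5′ to 3′ on the strand of the gene. Capitals mark only the site searched for the gene's own list. The genes were the members of 4 lists with the largest changes whose upstream bases held a match, 2 for each list where there were 2. The site of ATF4 and its partners was searched as TGATGNAA, the NF-kappaB site as GGANNTTCC, the interferon-stimulated response element as AAANNGAAA and the forkhead site as GTAAACA, each on both strands. In CHAC1 the capitals mark the reverse complement of the searched letters, and in CXCL2 the same bases match on both strands. The stretches of IFNB1 and CXCL11 also hold ggaaattcc, left in lower case, which matches the NF-kappaB letters. The stretches lie at chr7:97872413-97872532 (ASNS, minus strand), chr15:40953221-40953340 (CHAC1, plus), chr5:132073631-132073750 (CSF2, plus), chr4:74099209-74099328 (CXCL2, minus), chr9:21077969-21078088 (IFNB1, minus), chr4:76036126-76036245 (CXCL11, minus) and chr1:145996641-145996760 (TXNIP, minus).
ASNS: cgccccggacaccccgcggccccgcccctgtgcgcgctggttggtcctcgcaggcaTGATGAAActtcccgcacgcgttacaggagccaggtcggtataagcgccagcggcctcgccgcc
CHAC1: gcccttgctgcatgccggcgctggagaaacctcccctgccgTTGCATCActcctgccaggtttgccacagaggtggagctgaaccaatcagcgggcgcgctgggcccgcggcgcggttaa
CSF2: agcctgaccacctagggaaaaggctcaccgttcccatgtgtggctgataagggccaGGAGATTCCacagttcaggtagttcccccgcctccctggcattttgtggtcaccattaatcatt
CXCL2: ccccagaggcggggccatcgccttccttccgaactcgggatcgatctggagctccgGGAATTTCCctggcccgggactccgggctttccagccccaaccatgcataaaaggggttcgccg
IFNB1: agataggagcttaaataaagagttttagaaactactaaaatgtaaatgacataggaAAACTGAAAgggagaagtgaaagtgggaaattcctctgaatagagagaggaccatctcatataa
CXCL11: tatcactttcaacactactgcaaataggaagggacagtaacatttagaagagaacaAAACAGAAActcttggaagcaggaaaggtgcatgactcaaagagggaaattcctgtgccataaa
TXNIP: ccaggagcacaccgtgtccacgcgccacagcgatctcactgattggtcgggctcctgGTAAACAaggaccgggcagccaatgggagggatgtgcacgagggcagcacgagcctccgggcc

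The sites were also counted in 1 window of 300 bases per gene, from 250 bases before to 50 after the start of the canonical GENCODE 44 transcript on hg38, for 13854 genes. The letters TGATGNAA were in 1.58% of the windows of all genes tested, in 9.74% of those of genes that rose and in 1.83% of those of genes that fell. GGANNTTCC was in 4.49% of all windows, in 4.1% of those of genes that rose and in 10.1% of those of genes that fell. AAANNGAAA was in 7.38% of all windows, in 6.15% of those of genes that rose and in 19.5% of those of genes that fell. The forkhead letters GTAAACA were in 2.11% of all windows, in 2.05% of those of genes that rose and in 2.13% of those of genes that fell. These shares describe letters in a window and say nothing about whether a factor was bound there.

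The transfected genes rose in every library of FOXL2WT + FOXO1, as the labels require. The counts do not separate plasmid from endogenous transcripts. FOXL2 (chromosome 3, 138944224 to 138947137) stood at 8.37, 9.54 and 8.28 CPM in Vectors and at 376.4, 373.8 and 400.9 CPM in FOXL2WT + FOXO1, a 44.1-fold rise (log2 fold change 5.46, SE 0.13, edgeR adjusted p 2.1e-15). SMAD3 (chromosome 15, 67063763 to 67195173) was at 262.8, 240.0 and 245.0 CPM in Vectors and at 976.2, 956.9 and 974.9 CPM with the transfection, 3.89-fold higher (1.96, SE 0.05, edgeR adjusted p 2.6e-15). FOXO1 (chromosome 13, 40555667 to 40666641) was at 13.8, 12.2 and 13.5 CPM in Vectors and at 103.6, 115.5 and 132.5 CPM with the transfection, 8.91-fold higher (3.15, SE 0.09, edgeR adjusted p 1.7e-14). The groups lay far apart in all 3 genes, and the libraries of a condition lay close together.

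The RNA of the transfected genes was not at the same level in the conditions that received them. FOXL2 had a mean of 560.6 CPM in FOXL2WT, 383.7 CPM in FOXL2WT + FOXO1 and 152.4 CPM in FOXL2C134W + FOXO1. SMAD3 had means of 2768, 969.3 and 391.7 CPM in the same order. In the direct test, FOXL2WT + FOXO1 was below FOXL2WT by a log2 fold change of -0.55 for FOXL2 (SE 0.09, edgeR adjusted p 0.031) and -1.51 for SMAD3 (SE 0.05, edgeR adjusted p 1.5e-13). Every difference from FOXL2WT below therefore goes with less FOXL2 and SMAD3 RNA as well as with FOXO1, and the part of each was not tested.

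**Figure D2:**
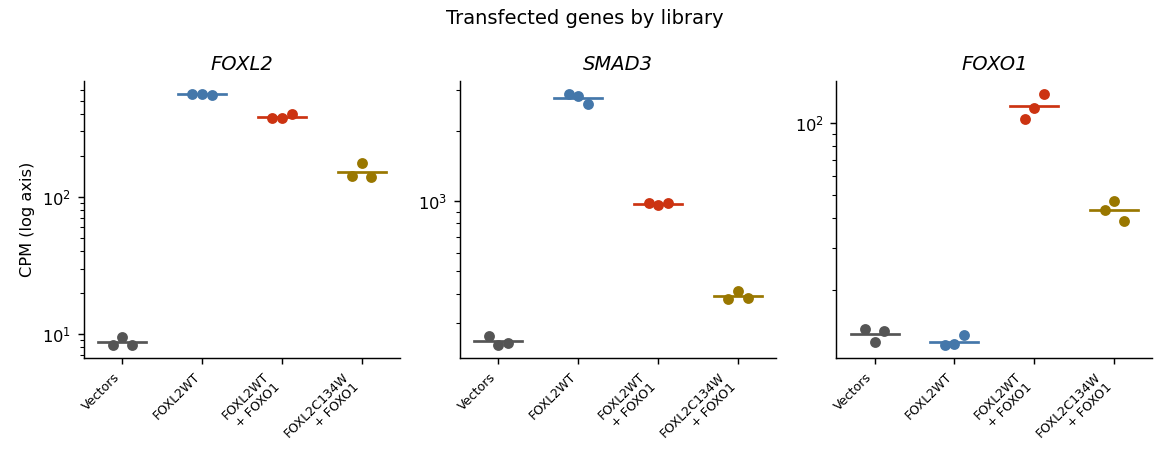
Level of the transfected genes in CPM on log axes, with a dot per library and a line at the mean of 3 libraries, in Vectors, FOXL2WT, FOXL2WT + FOXO1 and FOXL2C134W + FOXO1. FOXL2 and SMAD3 were highest in FOXL2WT (means of 560.6 and 2768 CPM), and FOXO1 was highest in FOXL2WT + FOXO1 (mean of 117.2 CPM).

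ATF4 target genes rose together. ATF4 is the transcription factor of the integrated stress response, and its targets make, import and charge amino acids. Of 41 members tested, 28 rose and 0 fell, and 13 did not pass the test; the median log2 fold change of the list was 0.29, against 0.003 over all genes tested. No member fell at an unadjusted p under 0.05 in edgeR either, and DESeq2 called 30 higher and 0 lower. With each of the 6 libraries left out in turn, 21 to 28 members rose. The list shares SESN2 and 3 further members with the list of FOXO targets.

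The members with the largest changes were a stress-induced chromatin protein, a pair of enzymes of amino acid synthesis and an enzyme that degrades glutathione. NUPR1, the chromatin protein, was at 22.8, 26.9 and 25.1 CPM in Vectors and at 39.1, 35.1 and 38.1 CPM in FOXL2WT + FOXO1 (log2 fold change 0.58, SE 0.07, edgeR adjusted p 9.8e-05). PSAT1, an enzyme of serine synthesis, was at 216.5, 249.4 and 240.1 CPM and at 366.6, 330.0 and 348.3 CPM (0.57, SE 0.06, edgeR adjusted p 2.4e-05). ASNS, asparagine synthetase, whose promoter is printed above, was at 134.3, 154.1 and 151.3 CPM and at 218.1, 201.1 and 220.5 CPM (0.54, SE 0.06, edgeR adjusted p 6.5e-05). In all 3 genes the lowest transfected library stood above the highest Vectors library, and each was called in all 6 fits that left out a library. CHAC1, the enzyme of glutathione degradation, rose from a mean of 16.9 ± 1.88 (SD, n = 3) to 24.1 ± 1.6 CPM (0.51, SE 0.11, edgeR adjusted p 0.015), and was called in 4 of those fits.

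Enzymes of serine and one-carbon metabolism among the called members were PHGDH (log2 fold change 0.44), MTHFD2 (0.36), ALDH1L2 (0.37), PSPH (0.41) and SHMT2 (0.31). Amino acid transporters among them were SLC7A5 (0.45), SLC1A5 (0.42), SLC7A11 (0.30), SLC7A1 (0.28) and SLC3A2 (0.26). Aminoacyl-tRNA synthetases among them were MARS1 (0.33), CARS1 (0.32), GARS1 (0.31), SARS1 (0.31), AARS1 (0.27), IARS1 (0.27), YARS1 (0.27) and TARS1 (0.20). ATF4 itself rose by 0.29 (SE 0.04, edgeR adjusted p 0.00038), from a mean of 394.3 to 482.1 CPM, and its inhibitor TRIB3 by 0.46 (SE 0.09, edgeR adjusted p 0.0047). The letters TGATGNAA were in the windows of 12 of the 28 members that rose, among them 7 aminoacyl-tRNA synthetases, and in 14 of all 41 members tested.

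NF-kappaB response genes fell. NF-kappaB is the transcription factor downstream of cytokine and pathogen receptors. Of 35 members tested, 0 rose and 16 fell, with a median log2 fold change of -0.38. At an unadjusted p under 0.05 in edgeR 0 rose and 24 fell, and DESeq2 called 0 higher and 16 lower. With each library left out in turn, 12 to 15 members fell. CXCL2, a neutrophil chemokine, was at 20.7, 21.2 and 20 CPM in Vectors and at 9.22, 9.6 and 10.1 CPM in FOXL2WT + FOXO1 (log2 fold change -1.09, SE 0.11, edgeR adjusted p 1.6e-05). CXCL1, from the same region of chromosome 4, was at 4.93, 5.73 and 5.08 CPM and at 3.03, 2.27 and 2.5 CPM (-1.02, SE 0.15, edgeR adjusted p 0.00044). CXCL8, or interleukin-8, was at 135.7, 145.5 and 149.1 CPM and at 95.4, 85.9 and 79.5 CPM (-0.73, SE 0.07, edgeR adjusted p 4.8e-06). No library of either group reached the range of the other in these chemokines, and each was called in all 6 fits that left out a library. CSF2, the growth factor GM-CSF, fell from 2.27 ± 0.158 to 1.05 ± 0.173 CPM (SD, n = 3; -1.13, SE 0.26, edgeR adjusted p 0.017) but rests on 18 to 59 counts a library and was called in 1 of the 6 fits.

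The inhibitors that NF-kappaB induces against itself fell with the chemokines. NFKBIA, which holds NF-kappaB in the cytoplasm, fell from a mean of 119.4 to 90.8 CPM (log2 fold change -0.40, SE 0.04, edgeR adjusted p 4.8e-06). TNFAIP3 (-0.45) and TNIP1 (-0.26) also fell. Further falls were in IL6 (-0.53), IL1A (-0.59), CCL2 (-0.44), CXCL3 (-0.86), ICAM1 (-0.26), TRAF1 (-0.48) and SOD2 (-0.57), the mitochondrial superoxide dismutase. BIRC3 and CXCL3 were called in 2 of the 6 fits without a library, and IL1A in 4. The letters GGANNTTCC were in the windows of 11 of 15 members that fell and have a window, and in 19 of 34 members tested.

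Interferon response genes fell as well. Of 55 members tested, 0 rose and 28 fell, and the median log2 fold change was -0.18. At an unadjusted p under 0.05 in edgeR 1 rose and 38 fell, and DESeq2 called 1 higher and 28 lower. With each library left out in turn, 19 to 24 members fell. IFNB1, interferon beta, was at 1.13, 2.03 and 1.64 CPM in Vectors and at 0.404, 0.557 and 0.337 CPM in FOXL2WT + FOXO1 (log2 fold change -1.86, SE 0.36, edgeR adjusted p 0.0056). These levels are 26 to 41 counts a library against 6 to 12 counts, and the gene was not called by DESeq2. CXCL11 and CXCL10, chemokines induced by interferon, fell by 1.24 and 1.14 on the log2 scale (SE 0.24 and 0.19, edgeR adjusted p 0.0058 and 0.0017) from means of 2.84 and 5.25 CPM. Lowest and highest libraries of the groups did not meet in any of these genes.

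The effectors of the interferon response were far more abundant than IFNB1 in these cells and changed less. RSAD2, an antiviral enzyme, was at 199.4, 194.0 and 215.8 CPM in Vectors and at 113.1, 122.4 and 124.1 CPM in FOXL2WT + FOXO1 (log2 fold change -0.76, SE 0.07, edgeR adjusted p 4.3e-06). The RNA-binding proteins IFIT2 (-0.50), IFIT1 (-0.32), IFIT3 (-0.31) and IFIT5 (-0.17) fell, as did the oligoadenylate synthetases OASL (-0.42), OAS2 (-0.35), OAS1 (-0.24) and OAS3 (-0.18). The RNA sensors DDX58 (-0.24), now named RIGI, and DHX58 (-0.24) and the signaling factors STAT2 (-0.20) and IRF1 (-0.25) were also lower. STAT2 and IFIT5 were called in 1 of the 6 fits that left out a library, DHX58 in 2, DDX58 in 3, IRF1 in 4 and IFIT3 in 5. The letters AAANNGAAA were in the windows of 20 of the 28 members that fell and of 38 of all 55 tested.

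MHC class I genes, whose products present peptides to T cells and which interferon also induces, fell in 7 of 21 tested, with 0 higher and a median of -0.11. At an unadjusted p under 0.05 in edgeR 0 rose and 14 fell, and DESeq2 called 0 higher and 9 lower. Those that fell were the chaperones CALR (-0.28) and PDIA3 (-0.17), the peptide trimming enzymes ERAP1 (-0.20) and ERAP2 (-0.25), the transporter TAP1 (-0.23), and HLA-E (-0.22) and HLA-F (-0.24). Only 4 fell without Vectors replicate A, without Vectors replicate C or without FOXL2WT + FOXO1 replicate B. Reads of HLA genes can be split among near-identical copies.

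**Figure D3:**
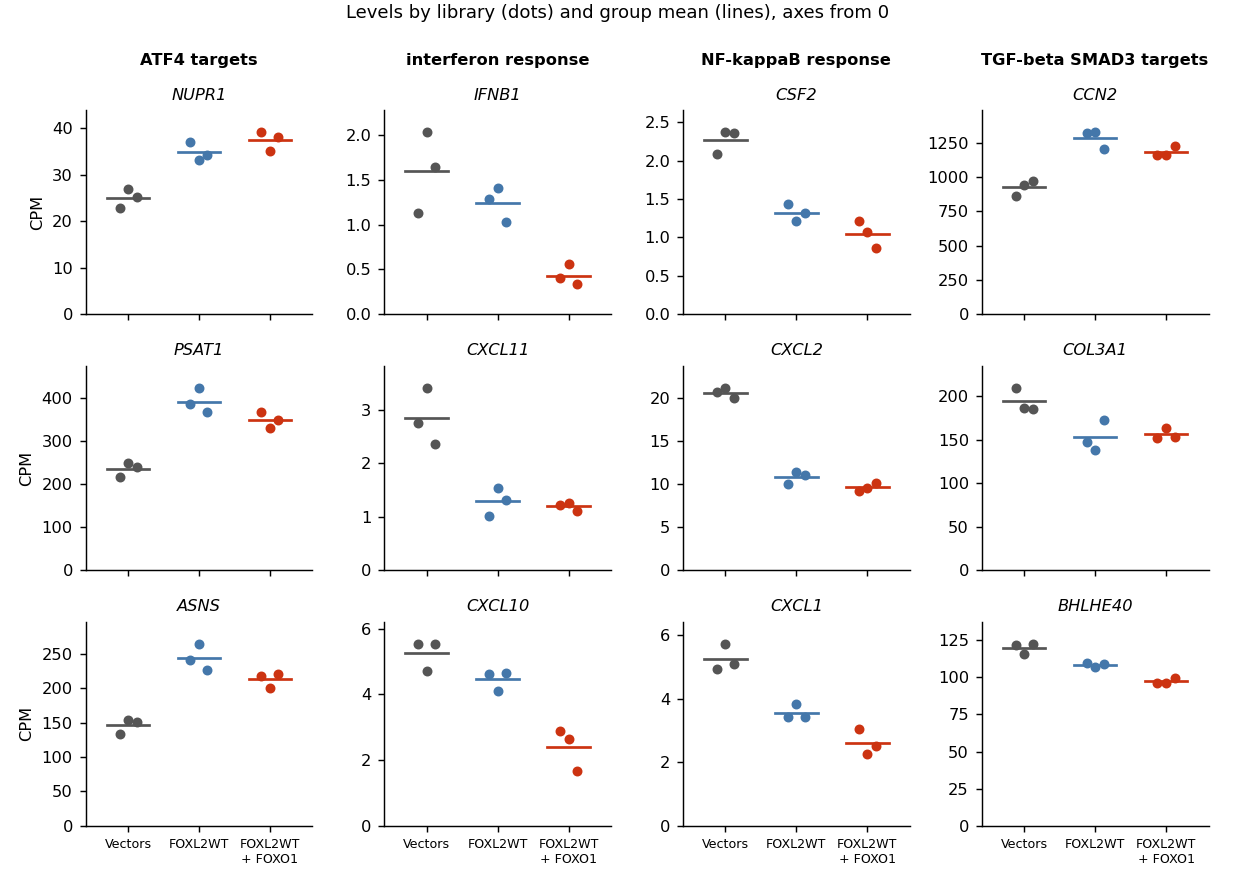
Level in CPM by library (dots) and mean of 3 libraries (lines) in Vectors, FOXL2WT and FOXL2WT + FOXO1, on axes from 0, for 3 called members each of the ATF4, interferon, NF-kappaB and TGF-beta lists. IFNB1 and CXCL10 had means of 1.24 and 4.46 CPM in FOXL2WT and of 0.432 and 2.41 CPM in FOXL2WT + FOXO1.

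Known FOXO targets did not move in 1 direction. Of 43 tested, 3 rose and 7 fell, with a median of -0.02. FOXL2WT without FOXO1 had 5 higher and 3 lower against the same Vectors libraries, with a median of -0.03. In the direct test of FOXL2WT + FOXO1 against FOXL2WT 0 of the list passed in edgeR. There 0 were higher and 11 lower at an unadjusted p under 0.05, and DESeq2 called 0 higher and 2 lower. TNFSF10, the death ligand TRAIL, was at 54.8, 44.2 and 46.3 CPM in Vectors and at 25.6, 27 and 26.5 CPM in FOXL2WT + FOXO1 (log2 fold change -0.88, SE 0.12, edgeR adjusted p 0.00038). KLF4, a transcription factor of growth arrest, was at 19.4, 20.3 and 20.2 CPM and at 12.3, 12.4 and 13.4 CPM (-0.65, SE 0.08, edgeR adjusted p 7.1e-05). FBXO32, a ubiquitin ligase of muscle wasting, was at 8.76, 8.85 and 8.72 CPM and at 4.64, 5.99 and 6.64 CPM (-0.59, SE 0.12, edgeR adjusted p 0.0087). The transfected libraries were below all Vectors libraries in each. In FOXL2WT, without FOXO1, the means of TNFSF10, KLF4 and FBXO32 were 23.9, 16.1 and 7.24 CPM. TXNIP, an inhibitor of thioredoxin and the only called member with a window that held GTAAACA, fell by 0.39 on the log2 scale (SE 0.05, edgeR adjusted p 0.00013), and SOD2 (-0.57), CDKN1A (-0.27) and PMAIP1 (-0.27) fell too. CDKN1A, the cell cycle inhibitor p21, was called in 3 of the 6 fits without a library.

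The FOXO targets that rose were SESN2 (log2 fold change 0.35, SE 0.09, edgeR adjusted p 0.034), IRS2 (0.29, SE 0.08, edgeR adjusted p 0.045) and CITED2 (0.25, SE 0.06, edgeR adjusted p 0.025). SESN2, which restrains mTORC1, is on the ATF4 list too. In FOXL2WT the log2 fold changes of SESN2, IRS2 and CITED2 against Vectors were 0.57, 0.19 and 0.22. None of the 3 passed without Vectors replicate A, Vectors replicate B, FOXL2WT + FOXO1 replicate A or FOXL2WT + FOXO1 replicate C. Over the whole list 7 rose and 13 fell at an unadjusted p under 0.05 in edgeR, and DESeq2 called 4 higher and 7 lower. With DESeq2 and transcript length offsets 0 of the list rose and 7 fell.

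TGF-beta and SMAD3 targets split. Of 50 tested, 8 rose and 7 fell, with a median of -0.01. CCN2, a matricellular protein, was at 863.9, 945.6 and 971.5 CPM in Vectors and at 1160, 1160 and 1226 CPM in FOXL2WT + FOXO1 (log2 fold change 0.35, SE 0.05, edgeR adjusted p 0.00044). CCN1, its relative, was at 1121, 1243 and 1289 CPM and at 1537, 1401 and 1540 CPM (0.29, SE 0.05, edgeR adjusted p 0.0028). ACTA2 (0.40), TAGLN (0.29), NEDD9 (0.22), TGFB2 (0.21), THBS1 (0.21) and TPM1 (0.17) also rose. JUNB (-0.33), COL3A1 (-0.31), COL1A1 (-0.30), BHLHE40 (-0.30), BAMBI (-0.23), KLF10 (-0.19) and ITGAV (-0.17) fell. Most of the genes that rose belong to the contractile cytoskeleton or the matricellular proteins, and the genes that fell include fibrillar collagens and the TGF-beta pseudoreceptor BAMBI. The direct SMAD feedback genes did not pass the test: SMAD7 had a log2 fold change of 0.06 and SKIL of -0.05. Without 1 library the count that rose dropped to 5 (FOXL2WT + FOXO1 replicates A or C, Vectors replicate A), and the count that fell to 4 (FOXL2WT + FOXO1 replicates A or B), 2 (Vectors replicate A) or 3 (Vectors replicate C). JUNB was called in 0 of the 6 fits, KLF10 in 1, and TAGLN and ACTA2 in 2.

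Collagens and basement membrane genes fell in 9 of 38 tested, with 1 higher and a median of -0.19. LAMB3, a laminin chain, was at 14.2, 14 and 15.3 CPM in Vectors and at 8.28, 11.6 and 9.62 CPM in FOXL2WT + FOXO1 (log2 fold change -0.55, SE 0.11, edgeR adjusted p 0.0058). COL1A1, the major fibrillar collagen, was at 1582, 1514 and 1517 CPM and at 1276, 1283 and 1199 CPM (-0.30, SE 0.05, edgeR adjusted p 0.0029). COL4A5 (-0.38), COL5A2 (-0.23), COL4A1 (-0.22), TNC (-0.20) and SPARC (-0.15) were lower in every transfected library than in any Vectors library. Without Vectors replicate A, 5 fell, while 5 fell with DESeq2 and transcript length offsets, 14 with an offset for GC content and 16 without a filter on low counts. THBS1, or thrombospondin 1, was the member that rose.

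Actin and focal adhesion genes rose in 5 of 29 tested and fell in 3, with a median of 0.06. MYL9, a myosin light chain, was at 262.5, 303.8 and 283.8 CPM in Vectors and at 382.6, 336.9 and 361.6 CPM in FOXL2WT + FOXO1 (log2 fold change 0.35, SE 0.06, edgeR adjusted p 0.0037). ZYX (0.23), TPM1 (0.17), TPM2 (0.17) and ACTN1 (0.17) rose, and the integrin subunits ITGAV (-0.17), ITGA5 (-0.17) and ITGB1 (-0.14) fell. Without a library the count that rose was 2 (FOXL2WT + FOXO1 replicate A), 1 (FOXL2WT + FOXO1 replicate C or Vectors replicate A) or 3 (Vectors replicate C), and the count that fell was 1 without FOXL2WT + FOXO1 replicate A, Vectors replicate A or Vectors replicate C.

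Genes of cholesterol supply fell in 9 of 27 tested, with 0 higher and a median of -0.10. At an unadjusted p under 0.05 in edgeR 0 rose and 12 fell, and DESeq2 called 0 higher and 9 lower. ABCA1, which exports cholesterol, was at 13.8, 14.7 and 15.4 CPM in Vectors and at 8.48, 8.96 and 8.95 CPM in FOXL2WT + FOXO1 (log2 fold change -0.73, SE 0.11, edgeR adjusted p 0.00098). IDI1, an enzyme of isoprenoid synthesis, was at 106.5, 106.6 and 102.7 CPM and at 88.7, 91.3 and 91 CPM (-0.22, SE 0.04, edgeR adjusted p 0.002). INSIG1 (-0.30), HMGCS1 (-0.22), SQLE (-0.21) and STARD4 (-0.20) were among the others that fell. Export and synthesis genes were thus both lower. Without Vectors replicate A, 5 fell.

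Chaperones of the endoplasmic reticulum fell in 6 of 22 tested, with 0 higher and a median of -0.11. At an unadjusted p under 0.05 in edgeR 0 rose and 11 fell, and DESeq2 called 0 higher and 7 lower. CALR was at 1402, 1388 and 1327 CPM in Vectors and at 1144, 1128 and 1111 CPM in FOXL2WT + FOXO1 (log2 fold change -0.28, SE 0.03, edgeR adjusted p 9.6e-05). HSP90B1 (-0.27), PDIA4 (-0.25), HSPA5 (-0.22), PDIA6 (-0.18) and PDIA3 (-0.17) fell. HSPA5, or BiP, is the chaperone that senses unfolded protein, and it was lower in the same libraries in which ATF4 targets were higher. Cytosolic heat shock genes fell in 2 of 26 tested, HSPA1B (-0.26) and HSPA1A (-0.17), which share near-identical sequence. That count was 0 or 1 without each library but FOXL2WT + FOXO1 replicate A.

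Of 22 tested members of the granulosa list, 0 rose and 2 fell, with 1 higher and 2 lower at an unadjusted p under 0.05 in edgeR and 0 higher and 1 lower by DESeq2. CYP11A1, which makes pregnenolone from cholesterol, was at 2.09, 2.37 and 1.6 CPM in Vectors and at 1.14, 0.974 and 1.06 CPM in FOXL2WT + FOXO1 (log2 fold change -0.93, SE 0.25, edgeR adjusted p 0.042). SOX9, a factor of testis differentiation that FOXL2 is known to repress, was at 31.3, 27.9 and 30.1 CPM and at 26, 24.1 and 25 CPM (-0.25, SE 0.07, edgeR adjusted p 0.047). Without a library 0 members passed (FOXL2WT + FOXO1 replicates A, B or C, Vectors replicate A) or 1 (Vectors replicates B or C). Follistatin (FST), a known FOXL2 and SMAD3 target, had means of 41.7 and 43.4 CPM and a log2 fold change of 0.06 (SE 0.05, edgeR adjusted p 0.61).

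As a check of the cell type, the granulosa factors GATA4, WT1, FST and NR5A1 were read at means of 148.8, 44.4, 41.7 and 5.29 CPM in Vectors. FSHR was at 0 counts in all 6 libraries, CYP19A1 at 0 or 1 count, INHA at 0 to 4 counts and AMHR2 at 3 to 7 counts, so defining markers of mature granulosa cells were at or near 0. Of the markers of other cell types, the leukocyte genes PTPRC and CD3E were at 0 to 5 and 0 counts, and theca CYP17A1 was at 0 counts. Others were abundant: CD68 of the leukocyte list and COL1A1 of the fibroblast and theca list had means of 110.4 and 1538 CPM in Vectors. Each makes up most of the sum of its list given below. Of the 2 leukocyte markers tested, CD68, a lysosomal protein, fell (log2 fold change -0.27). Of the 5 epithelial, 5 endothelial and 4 fibroblast and theca markers tested, CLDN4 (-0.35), TEK (-0.31) and COL1A1 (-0.30) fell. CLDN4 and TEK were called in 1 of the 6 fits without a library. Summed over a list, epithelial markers ranged from 4627 to 4756 CPM in Vectors and from 4676 to 4959 CPM in FOXL2WT + FOXO1, leukocyte markers from 104.7 to 118.5 and from 90.8 to 96.9 CPM, endothelial markers from 34.8 to 38 and from 29.1 to 30.8 CPM, and fibroblast and theca markers from 1590 to 1658 and from 1274 to 1358 CPM. Granulosa markers, transfected FOXL2 included, ranged from 250.5 to 262.6 and from 612.6 to 646.4 CPM. Their sum was below that of the epithelial markers in both conditions.

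Of 41 mitotic genes 1 fell, the kinase CDK1 (log2 fold change -0.17, SE 0.04, edgeR adjusted p 0.031), a share near that of all genes tested. The median of the list was -0.09, with 31 members below 0, and at an unadjusted p under 0.05 in edgeR 0 rose and 12 fell, while DESeq2 called 0 higher and 2 lower. The groups did not overlap in 14 members that were lower and 1 that was higher, beside 22.7% of all genes tested. Of 43 S-phase genes 0 passed in either direction in edgeR, where 1 rose and 1 fell at an unadjusted p under 0.05 and DESeq2 called 0. The replication helicase MCM7 was at 335.1, 337.6 and 332.7 CPM in Vectors and at 346.0, 334.3 and 332.0 CPM in FOXL2WT + FOXO1, and RRM2 had a log2 fold change of -0.07 (SE 0.04). Among 17 cell cycle regulators CDKN1A fell, and among 17 BCL2 family genes the proapoptotic PMAIP1 (-0.27, SE 0.04, edgeR adjusted p 0.00053) and BNIP3L (-0.17, SE 0.04, edgeR adjusted p 0.032) fell. CDK1 was not called without FOXL2WT + FOXO1 replicates B or C or Vectors replicates A or B, nor CDKN1A without FOXL2WT + FOXO1 replicates B or C or Vectors replicate B. PMAIP1 was called in all 6 fits without a library, and BNIP3L only without FOXL2WT + FOXO1 replicate C. Among 46 chromatin remodelers 0 passed in edgeR or DESeq2, with 3 higher and 0 lower at an unadjusted p under 0.05 in edgeR; CHD4 and NSD2 had values of -0.02 and -0.05 (SE 0.05 for each).

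Immediate early genes rose in 2 of 30 tested, CCN1 and MYC (log2 fold change 0.28, SE 0.05, edgeR adjusted p 0.0013), and fell in 3, KLF4, JUNB and KLF10, of which 1 was called without FOXL2WT + FOXO1 replicates A or B or Vectors replicates B or C. Of 27 NRF2 antioxidant genes SLC7A11 (0.30) and the thioredoxin reductase TXNRD1 (0.22, SE 0.04, edgeR adjusted p 0.0012) rose, and 1 of the pair was called without Vectors replicate A. Other forkhead factors did not pass the test in edgeR (0 of 18), with 4 higher and 0 lower at an unadjusted p under 0.05 and 1 higher by DESeq2, and FOXO3 stood at means of 70.9 and 70.9 CPM. Among 11 other SMADs and SMAD corepressors 0 passed in edgeR or DESeq2, with 1 higher at an unadjusted p under 0.05 in edgeR. SMAD2 was at 124.1, 124.9 and 124.7 CPM in Vectors and at 125.8, 126.5 and 127.2 CPM in FOXL2WT + FOXO1 (0.02, SE 0.04, edgeR adjusted p 0.86), and SMAD4 had a value of -0.02 (SE 0.04).

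Ribosomal protein genes rose in 4 of 75 tested, RPL28 (0.38), RPS3 (0.29), RPS23 (0.20) and RPS4X (0.18), with a median of 0.13 and 74 members above 0. In edgeR 34 rose and 0 fell at an unadjusted p under 0.05, and DESeq2 called 10 higher and 0 lower. The summed level of the list was 37615, 41641 and 40468 CPM in Vectors and 48289, 41481 and 41301 CPM in FOXL2WT + FOXO1, where replicate A stood above all others. Without that library 0 members passed, as without Vectors replicate A or C, and 1 passed without FOXL2WT + FOXO1 replicate C. Of 12 mitochondrially encoded genes MT-ND3 rose (0.50, SE 0.10, edgeR adjusted p 0.0082), at 44.3, 52.4 and 49.4 CPM in Vectors and 76.5, 64.1 and 65.9 CPM in FOXL2WT + FOXO1, where replicate A was again the highest. It was not called without 1 library, Vectors replicate A.

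**Figure D4:**
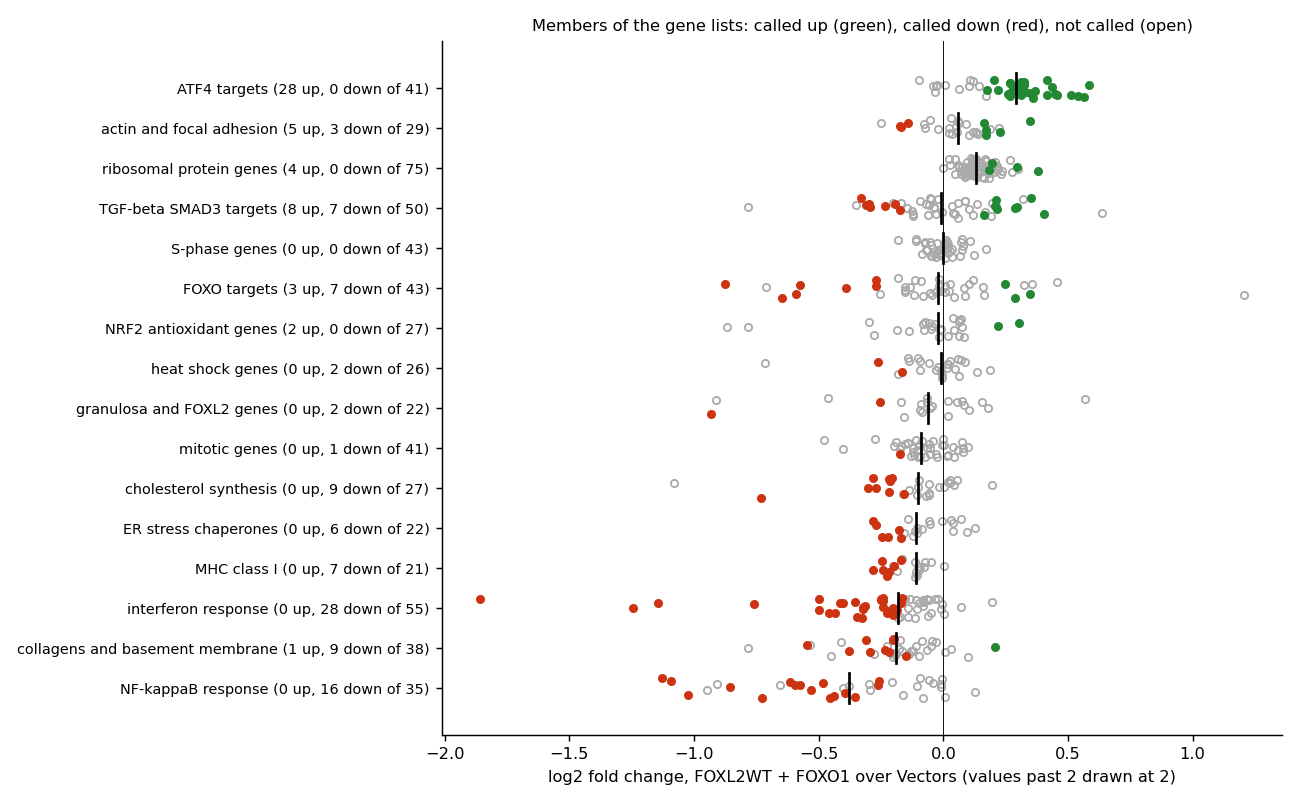
Log2 fold change in FOXL2WT + FOXO1 over Vectors of every tested member of 16 gene lists, with members called up in green, members called down in red, those not called open and the list's median as a bar. ATF4 targets have the highest median (0.29) and NF-kappaB response genes the lowest (-0.38) among the lists drawn.

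Among the DEGs at 5 CPM or more, the 12 with the largest falls ranged from -1.09 (CXCL2) to -0.65 (KLF4) on the log2 scale. Next to CXCL2 stood STC1, a secreted regulator of calcium and phosphate, at 10.1, 8.06 and 7.56 CPM in Vectors and 3.57, 4.59 and 4.76 CPM in FOXL2WT + FOXO1 (-0.98, SE 0.16, edgeR adjusted p 0.0011). TNFSF13B, the B cell survival factor BAFF (-0.77), the chemokine CCL4L2 (-0.81), the sugar transporter SLC2A13 (-0.67) and ANGPTL2 (-0.67) were among these falls, with TNFSF10, RSAD2, ABCA1, CXCL8 and KLF4. CCL4L2 has a near-identical copy with which it can share reads. ANGPTL2 was called in 4 of the 6 fits without a library, and the other 11 in all 6.

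The 12 largest rises were smaller, from 0.65 to 0.50. ADM2, a peptide hormone of the calcitonin family, was at 5.28, 5.34 and 5.36 CPM in Vectors and 9.22, 7.33 and 8.61 CPM in FOXL2WT + FOXO1 (log2 fold change 0.65, SE 0.11, edgeR adjusted p 0.0022). PCK2, the mitochondrial phosphoenolpyruvate carboxykinase, was at 69.6, 80.3 and 78.6 CPM and 119.2, 98.7 and 106.3 CPM (0.50, SE 0.07, edgeR adjusted p 0.00028). Both were called in all 6 fits without a library, as were NUPR1, PSAT1 and ASNS. CITED4 (0.60), LINC00680 (0.59), C8orf82 (0.59), LRRC37B (0.57), ERFE (0.54), SYBU (0.53) and CHAC1 (0.51) were each called in 1 to 4 of them.

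A further 29 DEGs had a mean under 5 CPM, and 15 of the 19 changes beyond 2-fold were among these. STK19B and KRTAP20-2 were at 0 counts in every Vectors library and at 15 to 28 and 9 to 16 counts in FOXL2WT + FOXO1. TNXA was at 14 to 32 counts in Vectors and 0 to 5 counts with the transfection. STK19B and TNXA are annotated as unprocessed pseudogenes with near-identical copies in the same region of chromosome 6, so their split of reads is uncertain.

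FOXL2WT without FOXO1 was compared with the same Vectors libraries, and the values of both comparisons are given side by side because they share those controls. FOXL2WT had 842 DEGs (6.07% of genes tested), with 341 higher (2.46%) and 501 lower (3.61%). ATF4 targets rose in 34 of 41 with a median of 0.39, and in FOXL2WT + FOXO1 in 28 with 0.29. NF-kappaB response genes fell in 16 of 35 in both, with medians of -0.24 and -0.38. Interferon response genes fell in 12 of 55 in FOXL2WT, median -0.09, and in 28 in FOXL2WT + FOXO1, median -0.18. Collagens and basement membrane genes fell in 20 of 38 and in 9, with medians of -0.27 and -0.19, and mitotic genes in 18 of 41 and in 1, with medians of -0.15 and -0.09. Tested directly against FOXL2WT in edgeR, 0 mitotic genes and 0 collagens and basement membrane genes passed (median differences 0.11 and 0.08). Of the ATF4 targets 1 was lower and 0 higher (-0.10), and of the NF-kappaB response genes 0 passed (-0.04). In edgeR 14 mitotic genes and 8 collagens and basement membrane genes were higher at an unadjusted p under 0.05, and 0 lower. By the same measure 15 ATF4 targets and 7 NF-kappaB response genes were lower, and 0 higher. Over all genes tested, 1266 stood under that p in either direction. DESeq2 called 0 mitotic genes, 0 collagens and basement membrane genes, 1 ATF4 target (lower) and 1 NF-kappaB response gene (lower).

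**Figure D5:**
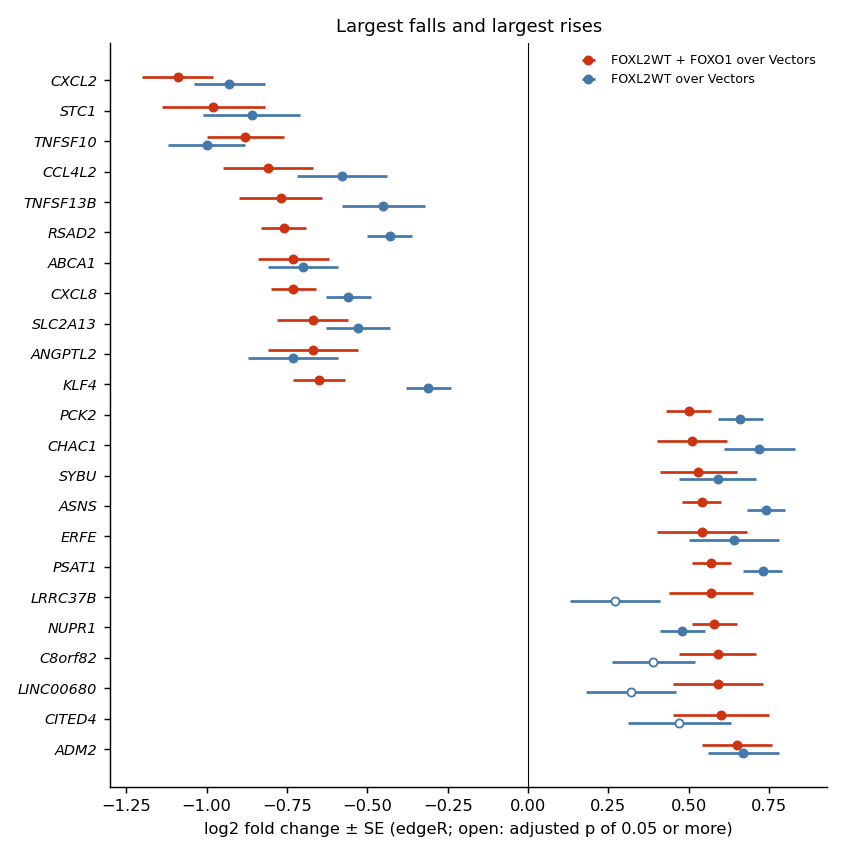
Log2 fold change with its standard error for 11 of the 12 largest falls and the 12 largest rises among DEGs at 5 CPM or more, in FOXL2WT + FOXO1 over Vectors (red) and FOXL2WT over the same Vectors libraries (blue), filled where the edgeR adjusted p is under 0.05. The red values run from -1.09 for CXCL2 to 0.65 for ADM2, and LRRC37B, C8orf82, LINC00680 and CITED4 are open for FOXL2WT.

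The direct test of FOXL2WT + FOXO1 against FOXL2WT called 7 genes (0.0505% of those tested). Beside FOXO1, FOXL2 and SMAD3 these were ATF3 (log2 fold change -0.55, SE 0.08, edgeR adjusted p 0.004), CMPK2 (-0.28, SE 0.05, edgeR adjusted p 0.022), KLF10 (-0.29, SE 0.05, edgeR adjusted p 0.031) and ARHGAP11B (1.16, SE 0.21, edgeR adjusted p 0.05). ATF3, a stress-induced repressor, had means of 28.9 CPM in Vectors, 41.7 CPM in FOXL2WT and 28.5 CPM in FOXL2WT + FOXO1. CMPK2, an interferon-induced mitochondrial kinase, had means of 198.5, 182.7 and 150.1 CPM in the same order. ARHGAP11B is a partial copy of ARHGAP11A and can share its reads. The differences in IFNB1 (-1.48, SE 0.38, edgeR adjusted p 0.19), CXCL10 (-0.91, SE 0.20, edgeR adjusted p 0.14) and RSAD2 (-0.33, SE 0.07, edgeR adjusted p 0.10) did not pass. Over the 55 interferon response genes the median difference from FOXL2WT was -0.09, and edgeR called 1 lower (CMPK2), DESeq2 7 and DESeq2 with transcript length offsets 3. In edgeR 0 were higher and 22 lower at an unadjusted p under 0.05, as were 1266 of all 13868 genes tested in either direction.

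The test against FOXL2C134W + FOXO1 called 20 genes (0.144% of those tested), 5 of them higher in the mutant condition and 15 lower. Its FOXO1, FOXL2 and SMAD3 RNA was lower by 1.44, 1.33 and 1.31 on the log2 scale, and the part of that difference in the other genes was not tested. Among the genes described above as falling against Vectors, CXCL8, KLF4, PMAIP1 and TNFAIP3 were lower still with the mutant. ATF3 was lower as well (log2 fold change -0.62, SE 0.08, edgeR adjusted p 0.00065), with a mean of 18.4 CPM. The pseudogene STK19B was at 0 counts in the mutant condition (edgeR adjusted p 0.034). CXCL8 had means of 143.5 CPM in Vectors, 87 CPM in FOXL2WT + FOXO1 and 49.2 CPM in FOXL2C134W + FOXO1, and TNFAIP3 of 92, 67.1 and 54.8 CPM.

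Library totals of the 6 libraries ran from 14962245 (FOXL2WT + FOXO1 replicate A) to 24951854 estimated counts. Between replicates the chi-square per degree of freedom was 2.203 to 4.146 in Vectors and 2.818 to 6.651 in FOXL2WT + FOXO1, above the 1 of counting noise, so the spread between libraries set the precision and no library was a copy of another. Replicate A of FOXL2WT + FOXO1 stood apart from B (6.645) and C (6.651). Without it 352 genes were called, and without Vectors replicate A 215. Across genes, the log2 fold change had a Spearman correlation of -0.160 with transcript length and 0.206 with GC content, and its median ran from 0.040 in the bin of shortest genes to -0.029 in the bin of longest genes. Fits with offsets for both are given in the closing section.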

How the data were processed

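The authors estimated transcript abundance with salmon 1.1.0 on hg38 from stranded mRNA libraries and deposited 2 kinds of values. The gene table holds estimated counts of 37787 genes, rounded to whole numbers by the authors and not normalized. The transcript tables hold the deposited TPM values, lengths and reads of 227063 transcripts, used here only for length offsets. No column was left unmapped.

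Libraries were grouped by the condition in their titles. All 15 libraries were fitted together in edgeR 4.0.16 (R 4.3.3) with TMM scaling, the default filterByExpr filter (13868 genes left) and quasi-likelihood tests. The log2 fold change, its SE and the Benjamini-Hochberg adjusted p come from that fit, and CPM uses the TMM library sizes. Depth was 14962245 to 25339094 estimated counts per library; a count of 0 allows up to 3 counts, for counting error only. Gene positions are from GENCODE 44 (GRCh38).

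Named were the transfected genes, the 12 largest rises and 12 largest falls among called genes with a mean of at least 5 CPM and groups that do not overlap, and in each of 29 lists up to 3 called members in each direction, or the 2 most abundant members where none was called. A few genes that the rule picks are not reported here. Others are named to complete a count, after their values were seen. The comparison, lists (776 genes, written from general knowledge) and motifs were chosen with earlier results of these data known. Alternatives were DESeq2 1.42.0, other scalings, filters, offsets from a lowess of span 0.3, a replicate block and leaving out libraries.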

Additional observations from a re-analysis of the deposited data

Results flagged for a closer look

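Named genes whose level differed between FOXL2C134W + FOXO1 and FOXL2WT + FOXO1 were flagged by the edgeR test of that difference. The log2 fold change of the mutant over the wild-type condition was -1.44 for FOXO1, -1.33 for FOXL2 and -1.31 for SMAD3 (edgeR adjusted p 2.6e-09, 1.9e-07 and 4.6e-12), so the 2 conditions held different amounts of all transfected RNA. It was -0.82 for CXCL8 (SE 0.07, edgeR adjusted p 2.1e-06), -0.52 for KLF4 (SE 0.08, edgeR adjusted p 0.0075) and -0.35 for PMAIP1 (SE 0.04, edgeR adjusted p 0.00014). Each of these 3 had also fallen in FOXL2WT + FOXO1 against Vectors. KLF4 had means of 20 CPM in Vectors, 12.7 CPM in FOXL2WT + FOXO1 and 8.86 CPM in FOXL2C134W + FOXO1, and PMAIP1 of 279.6, 232.2 and 181.9 CPM. With 3 libraries a condition no test for a single outlying library was made.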

How the results depend on the processing

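In FOXL2WT + FOXO1 against Vectors, 524 genes were called, 195 higher and 329 lower. Without a filter on low counts there were 954 (429 higher and 525 lower), and the higher genes numbered 297 with a gene length offset and 294 with that offset and the replicate block. The other settings gave 410 (DESeq2 with transcript length offsets, and the fit of the compared libraries alone) to 744 genes (gene length offset). Leaving out 1 library gave 215 to 412 genes, 64 to 171 higher and 151 to 241 lower. The count fell to 215 without Vectors replicate A, 340 without Vectors replicate B, 341 without Vectors replicate C and 305 without FOXL2WT + FOXO1 replicate C; the cause was not tested beyond there being fewer samples. Of 78 named genes that were called, 39 were called in all 6 fits without a library, 43 in all 10 other settings and 31 in both.

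The counts against FOXL2WT (7) and for FOXL2C134W + FOXO1 against FOXL2WT + FOXO1 (20) moved far more, and the cause was not tested. In that order they were 62 and 95 with DESeq2, 69 and 65 with DESeq2 and transcript length offsets, 23 and 61 with a GC content offset, 26 and 48 with a gene length offset, 22 and 40 with that offset and the block, 13 and 32 with at least 10 counts in every library, 260 and 446 without a filter, and 14 and 9 with the compared libraries alone. Leaving out 1 library gave 2 to 7 and 7 to 20.

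Changes of sign were seen in values near 0 and in 1 gene that shares reads with a copy. MCM7 was at -0.01 with DESeq2 and transcript length offsets and with the GC content offset, and between -0.01 and 0.02 without 1 library. CHD4 was at 0.14 with DESeq2 and transcript length offsets and at 0.01 with the length offset with or without the block, and between -0.05 and 0.01 without 1 library. SMAD4 was at 0.04 with DESeq2 and transcript length offsets, and between -0.06 and 0.00 without 1 library. ARHGAP11B, called higher than in FOXL2WT, was at -0.20 with DESeq2 and transcript length offsets.

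Replicate letters did not pair the libraries: deviations from the group means of same-letter libraries correlated at -0.058, 0.06 and 0.0184. With the replicate block 517 genes were called (196 higher and 321 lower), and 7 and 18 in the other comparisons. Genes near 1 CPM rest on few counts, and the depth limits what can be said of them.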

Other observations

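Of the 524 DEGs, 378 were in none of the lists. Genes named from here on were chosen after their values were seen, so no test beyond the fit across all genes applies. Several that rose serve the same metabolism as the ATF4 list: the amino acid transporters SLC1A4 (log2 fold change 0.47) and SLC6A9 (0.41), the enzymes CBS (0.41), GPT2 (0.40), PYCR1 (0.37) and MTHFD1L (0.29), the translation repressor EIF4EBP1 (0.43) and the tRNA exporter XPOT (0.25). SRF, the transcription factor of actin genes, rose by 0.29, as did ANKRD1 (0.29), CNN2 (0.31), TGFB1I1 (0.25) and FBLIM1 (0.22).

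Several that fell are genes of innate immunity: GBP4 (-0.63), the RNase ZC3H12A (-0.58), the amino acid oxidase IL4I1 (-0.51), CASP1 (-0.41), APOBEC3G (-0.41), the complement component C3 (-0.36), APOL1 (-0.35), STING1 (-0.31) and TLR3 (-0.25). The lipid regulators SREBF1 (-0.42) and SCD (-0.39) fell, as did the nuclear noncoding RNA NEAT1 (-0.48) and the transcription factor KLF9 (-0.24). All of these were at a mean of 5 CPM or more in the 6 libraries.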
